A study of Homo sapiens with 18 samples.

Results

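TMD8 cells at 500 nM JIB-04 were compared with TMD8 cells at 150 nM JIB-04, the upper of the 2 dose steps in this line. The comparison holds 6 of the 18 RNA-seq libraries of the series, 3 at each dose, taken by the cell line and dose in their titles. No vehicle library entered the contrast. TMD8 and OCI-Ly1 are established human lines from diffuse large B-cell lymphoma, TMD8 of the activated B-cell-like type and OCI-Ly1 of the germinal centre B-cell-like type. Each line was kept in vehicle (DMSO, 0.01%) or given JIB-04 at 150 nM or at 500 nM, and each of these groups has 3 libraries. TMD8 grew in RPMI and OCI-Ly1 in IMDM, both with serum and antibiotics, so line and medium cannot be told apart. RNA was depleted of ribosomal RNA before library construction and read in paired ends of 101 cycles. The labels give no treatment time, batch or date, and leave unsaid if replicate libraries stem from separate cultures, so the p-values here measure only the spread between these libraries.

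JIB-04 is a small molecule described as an inhibitor of the Jumonji C (JmjC) histone demethylases, enzymes that use iron and 2-oxoglutarate to take methyl groups off histone lysines. KDM4A, KDM4B and KDM4C act on histone H3 lysine 9 and lysine 36. A compound that stresses cells can also engage other programmes. The zinc-sensing factor MTF1 drives metallothionein genes through metal-response elements, HSF1 drives chaperone genes through heat-shock elements, ATF4 drives amino-acid and stress genes through the CARE element (a joined C/EBP and ATF site), and the CHR element (cell-cycle genes homology region) holds mitotic genes down outside mitosis.

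The TMD8 labels matched IRF4 and the B-lineage markers. IRF4, a factor typical of activated B-cell-like lymphoma, stood at 2364, 2165 and 2078 CPM (counts scaled to library size) at 150 nM and at 1739, 1733 and 1732 CPM at 500 nM, against 233, 232 and 248 CPM in OCI-Ly1 at 150 nM. 6 B-lineage markers summed to 2439 to 2560 CPM at 150 nM and 2311 to 2355 CPM at 500 nM. Of the markers of other cell types, only CD3E and HBB were at 0 in all 9 TMD8 libraries. KLRD1, of the T and NK markers, stood at 14.28 to 17.96 CPM over these libraries. KRT8, of the epithelial, stromal and endothelial markers, stood at 14.08 to 17.73 CPM. The labels were thus not matched by an absence of all such markers. All CPM values use library sizes adjusted by the trimmed mean of M-values (TMM).

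The 6 libraries held 9550092 to 19560073 estimated counts, the deepest being the third library at 150 nM and the shallowest the third at 500 nM. The third 150 nM library gave a chi-square per degree of freedom of 6.08 and 4.07 against the other 150 nM libraries, and those 2 gave 2.23. This measure grows with read depth. By correlation of log2 CPM the third library did not stand apart: it gave 0.9921 with the first and 0.9934 with the second, which gave 0.993 between them. The third library was the 150 nM library nearest to the 500 nM mean for 62.6% of the genes that rose and 71.8% of the genes that fell. Without it, the genes called with an absolute log2 fold change of at least 1 numbered 388, against 256 with it. On the deposited TPM scale the median of all genes moved to -0.14 in this step, on log2(TPM + 1). The 10 highest genes, several of them short RNAs, held 64.8% to 68.2% of TPM at 150 nM and 71.2% to 74.3% at 500 nM. Beside lists whose majority or median changes direction on that scale, the counts on log2(TPM + 1) are given as deposited and after centring each library on its median.

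The step from 150 to 500 nM moved many genes by small amounts and a few by large ones. Of 15363 genes tested, 2111 rose (13.7%) and 2298 fell (15.0%) at an edgeR adjusted p under 0.05, and 28.7% changed in either direction. An absolute log2 fold change of at least 1 was reached by 1.67% of the genes, 197 higher (1.28%) and 59 lower (0.384%). The 3 libraries of each dose did not overlap for 44.8% of the genes, and the median log2 fold change over all genes was 0.01. Genes named below as largest changes or list members had to be without overlap, and some were added with their values seen. Statements that the doses did not overlap in such genes describe them and add no evidence. Counts of called list members are to be read against the shares of 13.7% and 15.0%. The split of the calls depended on the scaling: 47.9% of them were rises here, against 10.4% on log2(TPM + 1), 41.7% after centring, 38.1% with DESeq2 and 39.5% without a filter on low counts. The plot of all genes by level shows where the named groups lay.

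**Figure D1:**
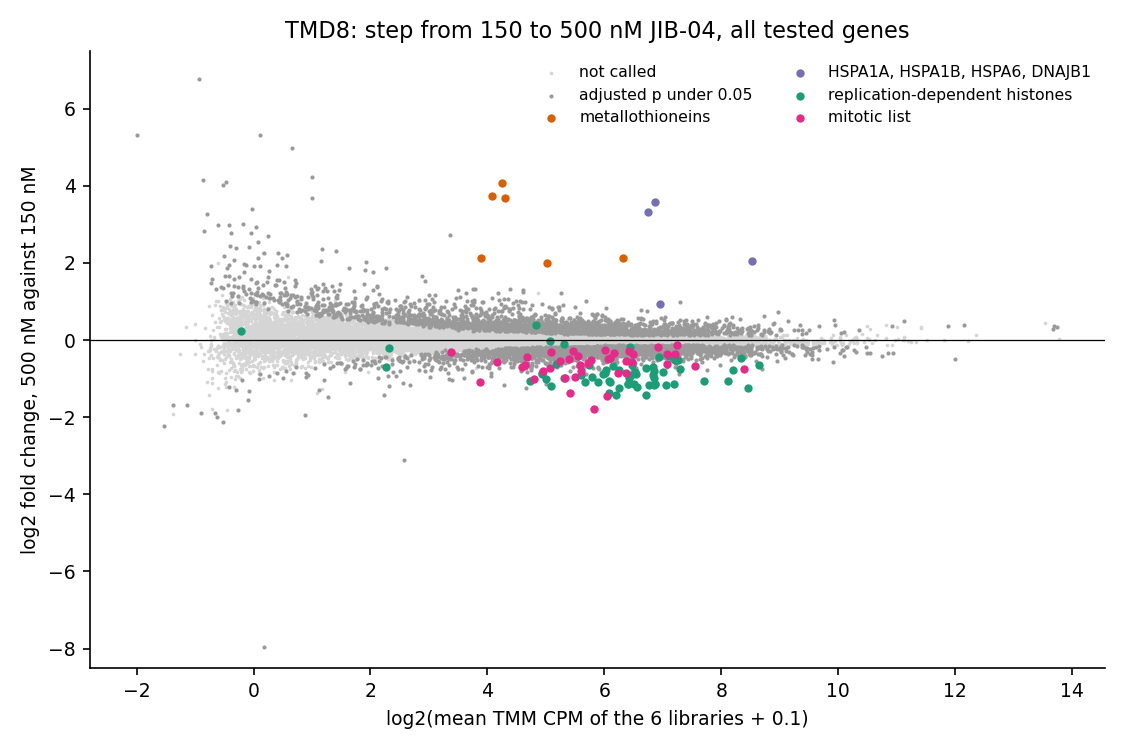
Each point is a gene tested in TMD8, placed by log2 of its mean TMM-scaled CPM over the 6 libraries plus 0.1 (x axis) and its log2 fold change from 150 to 500 nM JIB-04 (y axis); dark grey points passed an edgeR adjusted p under 0.05. The metallothioneins reach 4.07 and HSPA6 reaches 3.57 on the y axis, while the mitotic list and nearly all replication-dependent histones lie below 0.

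Genes answering to metal ions held the 3 largest rises among genes with at least 5 CPM at 500 nM, over 3 counts in each library and no overlap between doses. All 6 tested metallothioneins, small cysteine-rich proteins that bind zinc, copper and cadmium, rose with a median log2 fold change of 2.90. The promoters of the 3 with an entry in the RefSeq promoter table are shown here because they carry dense copies of the metal-response element. They run 5′ to 3′ on the gene's strand, as stretches before the transcript start (GRCh38.p14). Capitals mark TGCACNC or TGCGCNC on either strand.
MT2A, chr16:56608334-56608583, plus strand: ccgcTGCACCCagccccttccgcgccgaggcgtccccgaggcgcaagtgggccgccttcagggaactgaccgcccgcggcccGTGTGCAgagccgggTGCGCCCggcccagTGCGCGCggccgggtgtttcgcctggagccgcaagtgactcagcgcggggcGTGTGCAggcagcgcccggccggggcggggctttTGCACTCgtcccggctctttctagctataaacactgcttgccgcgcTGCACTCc
MT1H, chr16:56669579-56669813, plus strand: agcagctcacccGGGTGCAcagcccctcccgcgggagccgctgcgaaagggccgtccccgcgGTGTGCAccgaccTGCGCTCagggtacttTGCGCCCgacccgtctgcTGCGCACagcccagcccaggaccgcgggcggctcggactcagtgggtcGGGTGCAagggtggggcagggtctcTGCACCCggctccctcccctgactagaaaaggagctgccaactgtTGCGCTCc
MT1X, chr16:56682308-56682435, plus strand: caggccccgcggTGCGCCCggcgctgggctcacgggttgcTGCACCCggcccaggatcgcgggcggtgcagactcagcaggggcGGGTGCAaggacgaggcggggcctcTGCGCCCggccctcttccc
Within 300 bases around the start (250 before, 50 after), MT2A and MT1H held 8 matches each and MT1X held 4. At least 4 matches occurred in 3 of 3 metallothionein promoters with an entry and in 0.339% of 35116 promoters. A match is a run of letters, not a measured binding site.

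The metallothioneins differed from each other in how the rise was spread over the doses. MT1E stood at 1.96, 2.28 and 2.68 CPM at 150 nM and at 29.0, 32.5 and 32.0 CPM at 500 nM, a log2 fold change of 3.73 (SE 0.12, edgeR adjusted p 3.4e-12). MT1H went from 1.38, 2.07 and 2.63 CPM to 30.8, 35.2 and 40.8 CPM (4.07, SE 0.16), and MT1G from 2.47, 2.28 and 3.52 CPM to 33.7, 35.8 and 39.5 CPM (3.67, SE 0.15). For these 3 genes every 500 nM library was far above every 150 nM library. MT2A, the most abundant member here in CPM, rose from 23.1, 26.7 and 37.5 to 115, 133 and 144 CPM (2.14, SE 0.12). MT1X had 11, 10.2 and 8.0 CPM under vehicle, 11.8, 13.4 and 13.3 CPM at 150 nM and 48.5, 51.7 and 54.5 CPM at 500 nM. MT1X thus lay just above its vehicle libraries at the lower dose and rose by 2.0 in the upper step. MT1F rose by 2.13 there, against a log2 fold change of 0.58 in the lower step. The zinc exporter SLC30A1 rose as well, from 23.4, 23.7 and 21.9 to 51.3, 55.1 and 54.4 CPM (1.22, SE 0.06, edgeR adjusted p 9.2e-10). The zinc importer SLC39A10 fell from 68.9, 65.1 and 58.7 to 48.6, 48.9 and 46.6 CPM (-0.41, SE 0.07). MTF1, the sensor itself, had a log2 fold change of -0.16 (edgeR adjusted p 0.086). In all, 7 of the 9 tested metal-responsive genes rose and 1 fell. Metallothionein genes are near-identical in sequence, so the split of reads between them is uncertain.

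The chaperone list split in 2. 8 of 33 tested HSF1 targets rose, 19 fell and the list's median was -0.26. The largest rises were in inducible members. HSPA6, a heat-shock protein with almost no expression in unstressed cells, stood at 8.49, 18.2 and 25.7 CPM at 150 nM and at 206, 215 and 226 CPM at 500 nM, which is 3.57 on the log2 scale (SE 0.18, edgeR adjusted p 4.1e-10). The inducible HSP70 gene HSPA1A went from 12.2, 16.6 and 28.2 CPM to 195, 187 and 207 CPM (3.32, SE 0.17). In both genes the third 150 nM library was the highest of its group and still far below every 500 nM library. HSPA1B rose from 119, 147 and 165 to 606, 585 and 597 CPM (2.04, SE 0.08). The 2 HSP70 genes are near-identical, so the share of each is uncertain. DNAJB1, a J-domain partner of HSP70, held 83.7, 85.6 and 84.9 CPM at 150 nM, level with its 86.3, 83.9 and 87.9 CPM under vehicle, and reached 163, 157 and 166 CPM at 500 nM (0.93, SE 0.05). BAG3, which links HSP70 to autophagy, rose by 0.44, and SERPINH1, a collagen chaperone, by 0.38.

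The abundant constitutive chaperones fell in the same libraries. HSPA8, the constitutive HSP70, went from 1274, 1161 and 1036 CPM at 150 nM to 779.6, 778 and 784 CPM at 500 nM, a difference of -0.57 (SE 0.07, edgeR adjusted p 1.2e-05). HSP90AB1, the constitutive HSP90, went from 2205, 2069 and 1950 CPM to 1630, 1653 and 1625 CPM (-0.34, SE 0.06). The mitochondrial pair HSPD1 and HSPE1 fell by 0.36 and 0.58 on the log2 scale. The groups did not overlap in any of these genes. Falls were not confined to constitutive members: HSP90AA1, HSPH1 and HSPB1 also fell, by 0.26, 0.22 and 0.33 on the log2 scale. Promoters with the letters of a heat-shock element were found among genes of both directions. Below, capitals mark 3 alternating units of GAA and TTC, each 2 bases from the next and starting with either unit (the pattern is the same on both strands), in RefSeq promoters (GRCh38.p14) of a gene that rose and of one that fell.
HSPA6, chr1:161524454-161524490, plus strand: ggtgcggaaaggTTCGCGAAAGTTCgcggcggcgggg
HSPA8, chr11:123062167-123062378, minus strand: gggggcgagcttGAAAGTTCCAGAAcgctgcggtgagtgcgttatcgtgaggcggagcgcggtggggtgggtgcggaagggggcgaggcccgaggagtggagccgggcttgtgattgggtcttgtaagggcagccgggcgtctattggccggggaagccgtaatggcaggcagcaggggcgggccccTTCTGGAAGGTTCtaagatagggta
At least 1 match occurred in 9 of 30 list promoters (30%) and in 0.49% of all promoters. The holders were HSPA6 and SERPINH1, which rose, DNAJB6, which was not called, and HSPA8, HSP90AA1, HSP90AB1, HSPD1, DNAJA1 and CHORDC1, which fell. HSPA1A, HSPA1B and DNAJB1 had no match to these letters in this window.

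Genes of mitosis fell almost without exception: 39 of 40 tested members were lower, none was higher, and the median log2 fold change was -0.58. BUB3, of the spindle checkpoint, was the member not called (-0.12). The kinase PLK1, which drives entry into and passage through mitosis, had the largest fall under the same conditions, from 101, 88.0 and 73.8 CPM to 26.3, 24.7 and 24.4 CPM (-1.79, SE 0.10, edgeR adjusted p 1.3e-09). CCNB1, the mitotic cyclin B1, went from 110, 97.6 and 81.5 CPM to 37.2, 34.4 and 33.5 CPM (-1.45, SE 0.09). CDC20, the activator of the anaphase-promoting complex, went from 71.5, 60.4 and 51.6 CPM to 23.5, 20.5 and 26.4 CPM (-1.38, SE 0.11). The third 150 nM library was the lowest of its group in all 3 genes, and no 500 nM library reached it. AURKA, the spindle kinase, fell by 0.97 on the log2 scale and CENPA, the centromeric histone H3 variant, by 1.08. The summed level of the list was 3674, 3404 and 3194 CPM at 150 nM and 2261, 2286 and 2285 CPM at 500 nM. In such bulk libraries, fewer cells in mitosis and less of these RNAs per cell cannot be told apart.

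The promoters of 3 of these genes hold the CHR letters TTTGAA, in capitals below on either strand (RefSeq, GRCh38.p14).
PLK1, chr16:23678848-23678877, plus strand: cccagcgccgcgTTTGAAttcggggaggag
CDC20, chr1:43358791-43358933, plus strand: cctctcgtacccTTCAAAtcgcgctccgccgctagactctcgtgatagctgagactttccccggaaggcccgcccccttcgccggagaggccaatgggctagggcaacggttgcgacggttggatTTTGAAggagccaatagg
CENPA, chr2:26786026-26786055, plus strand: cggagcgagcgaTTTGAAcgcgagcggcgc
At least 1 match was found in 23 of 33 mitotic promoters with an entry (69.7%) and in 15.2% of all promoters. CCNB1 fell and had no match to these letters before its start.

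Histone genes of the replication-dependent clusters had a lower median than the mitotic list, with 58 of 63 tested members lower, 1 higher and a median log2 fold change of -0.89. These genes package newly made DNA, and their transcripts normally lack a poly(A) tail, so libraries from ribosomal RNA-depleted RNA capture them. All core and linker families took part: 4 of 5 H1 genes fell (median -0.78), 15 of 15 H2A genes (-0.83), 16 of 17 H2B genes (-0.81), 11 of 13 H3 genes (-1.06) and 12 of 13 H4 genes (-1.06). HIST1H1B, a linker histone, went from 571, 467 and 450 CPM to 215, 200.5 and 211 CPM (-1.25, SE 0.08, edgeR adjusted p 4.9e-09). HIST2H2BF went from 177, 144 and 135 CPM to 56.9, 54.2 and 59.1 CPM (-1.42, SE 0.09), and HIST1H2BH from 122, 101 and 99.2 CPM to 39.9, 38.9 and 41.2 CPM (-1.42, SE 0.08). The groups were apart in all 3 genes, which the rule for naming them required. HIST2H2BC was the member that rose, from 21.1, 23.1 and 28.8 CPM to 31.0, 33.6 and 31.5 CPM (0.38, SE 0.09). The summed level of the list was 9356, 8052 and 7542 CPM at 150 nM and 4599, 4483 and 4608 CPM at 500 nM. 6 members had a twin with identical values in all 9 libraries, and histone copies share so much sequence that the split between them is uncertain.

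Of 42 tested DNA replication genes, 7 rose (16.7%) and 8 fell (19.0%), near the 13.7% and 15.0% of all genes, with a median of -0.02. The split moved with the scaling, to 5 and 12 on centred log2(TPM + 1), 6 and 12 without the filter on low counts, and 1 and 17 on uncentred log2(TPM + 1), with a median of -0.23. CCNE2, a cyclin of the G1 to S transition, rose from 24.1, 22.7 and 27.1 CPM to 38.0, 37.7 and 40.2 CPM (0.64, SE 0.07, edgeR adjusted p 6.9e-06). LIG1, the ligase that seals replication fragments, rose by 0.26. The helicase subunit MCM5 fell by 0.29 on the log2 scale, and POLE2, of polymerase epsilon, by 0.30. The count of fallen members was 12 without the third 150 nM library and 4 without the first or the second, so this count rests on single libraries.

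Growth genes fell by less. 36 of 37 ribosome biogenesis genes were lower (median -0.35). RRS1, of large-subunit assembly, had the largest fall, from 48.8, 43.1 and 43.2 CPM to 26.4, 31.0 and 25.1 CPM (-0.70, SE 0.09, edgeR adjusted p 1.3e-05). MYC, the transcription factor that drives ribosome production and is itself on this list, went from 242, 221 and 210 CPM to 151, 155 and 160 CPM (-0.53, SE 0.06). Proteasome genes were also lower in 28 of 32 cases (median -0.22). PSMB6, a catalytic core subunit, fell by 0.42 on the log2 scale and PSMA4, of the outer ring, by 0.37. NFE2L1, the factor that induces proteasome genes, was the list's member that rose, by 0.16, although its difference on log2(TPM + 1) was -0.06. The proteasome count was 15 without the first 150 nM library, 17 without the third 500 nM library and 30 without the third 150 nM library, with a median between -0.27 and -0.18. The plot of list counts shows these lists at its lower end.

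**Figure D2:**
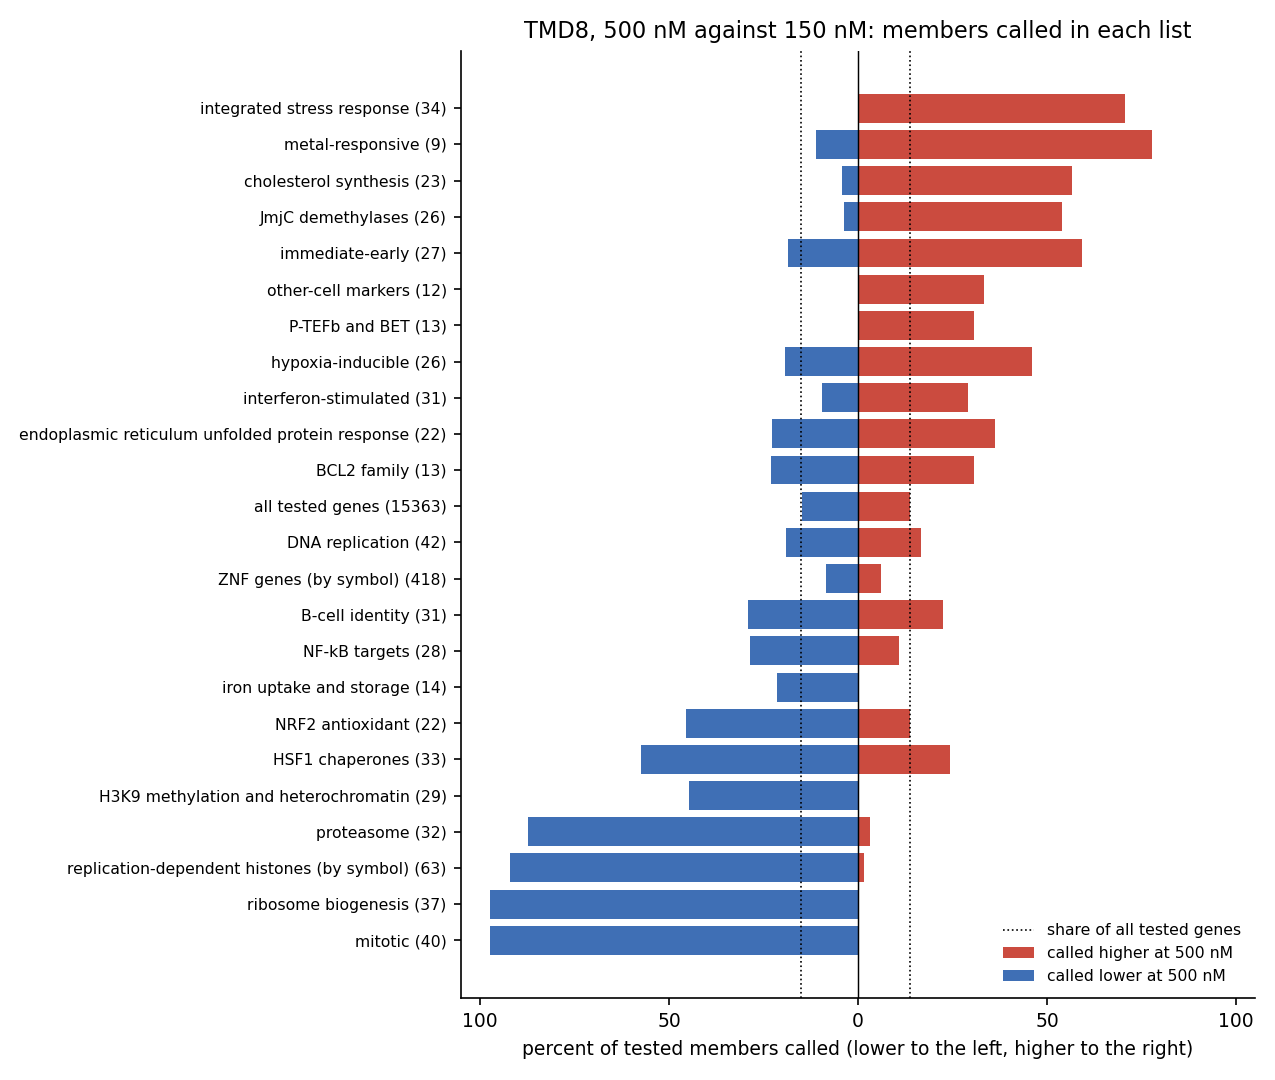
Bars give the percentage of each list's tested members (number in brackets) called higher (red, right) or lower (blue, left) at 500 nM against 150 nM in TMD8 by edgeR adjusted p under 0.05; dotted lines mark the shares of all tested genes, 13.7% higher and 15.0% lower. Mitotic, ribosome biogenesis, histone and proteasome lists lie to the left, integrated stress response and metal-responsive lists to the right; on uncentred log2(TPM + 1) the medians of the JmjC, cholesterol, interferon, P-TEFb, other-cell and ZNF lists turn negative, and calls for the hypoxia, BCL2 and unfolded protein response lists become mostly lower.

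The integrated stress response, the programme run by ATF4, rose further in the upper step. 24 of 34 tested members rose, none fell, and the median was 0.31. On log2(TPM + 1) 11 rose and 1 fell (0.09), and after centring 24 rose and none fell (0.24). ATF4 went from 239, 257 and 268 CPM to 327, 333 and 347 CPM (0.40, SE 0.05, edgeR adjusted p 1.6e-05). DDIT3, the pro-apoptotic factor CHOP, rose from 14.9, 18.6 and 20.7 CPM to 30.2, 27.1 and 27.5 CPM (0.63, SE 0.10). CHAC1, which degrades glutathione, went from 15.4, 16.1 and 19.8 CPM to 28.6, 27.5 and 30.1 CPM (0.73, SE 0.10). In all 3 genes the doses did not overlap. VLDLR, a lipoprotein receptor, rose by 1.02, GDF15, a secreted stress cytokine, by 0.97 and DDIT4, an inhibitor of mTORC1 signalling, by 0.75. ASNS and PHGDH, enzymes of asparagine and serine synthesis, rose by 0.29 and 0.28. The CARE letters TGATGCAA were found in 5 of 29 promoters of the list with an entry (17.2%) and in 0.866% of all promoters. The CHAC1 match lies on the opposite strand, in capitals (RefSeq, GRCh38.p14).
CHAC1, chr15:40953250-40953281, plus strand: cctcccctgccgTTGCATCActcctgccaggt

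The unfolded protein response of the endoplasmic reticulum, a neighbouring pathway, was divided: 8 of 22 members rose, 5 fell and the median was -0.01. On log2(TPM + 1) 2 rose and 7 fell (-0.22), and after centring 6 rose and 7 fell (-0.0589). ERN1, the sensor kinase IRE1, rose from 19.7, 24.2 and 29.4 CPM to 44.7, 44.7 and 43.3 CPM (0.84, SE 0.10, edgeR adjusted p 1.3e-05). HERPUD1, of protein degradation at the reticulum, rose by 0.41. PDIA3 and DNAJB11, which fold proteins in its lumen, fell by 0.28 and 0.29 on the log2 scale.

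GADD45B, a growth-arrest gene induced by stress signals, went from 83.9, 103 and 127 CPM to 203, 210 and 210 CPM (0.98, SE 0.09, edgeR adjusted p 9.1e-07). CDKN1A, the cell-cycle inhibitor p21, rose from 146, 170 and 172 CPM to 210, 218 and 221 CPM (0.41, SE 0.06). The 500 nM libraries of both genes lay above all 150 nM libraries.

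Immediate-early genes, the first to answer to signals, rose in 16 of 27 cases and fell in 5 (median 0.43), with 3 falls without the first or the third 500 nM library. FOS went from 7.40, 10.3 and 14.3 CPM to 27.5, 23.6 and 25.5 CPM (1.23, SE 0.15, edgeR adjusted p 1.6e-05). FOSB rose by 1.25, the phosphatase gene DUSP1 by 1.05 and the nuclear receptor gene NR4A1 by 0.97. EGR2, of the same class, went the other way, from 34.8, 33.2 and 33.6 CPM to 19.4, 19.5 and 19.8 CPM (-0.79, SE 0.07).

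**Figure D3:**
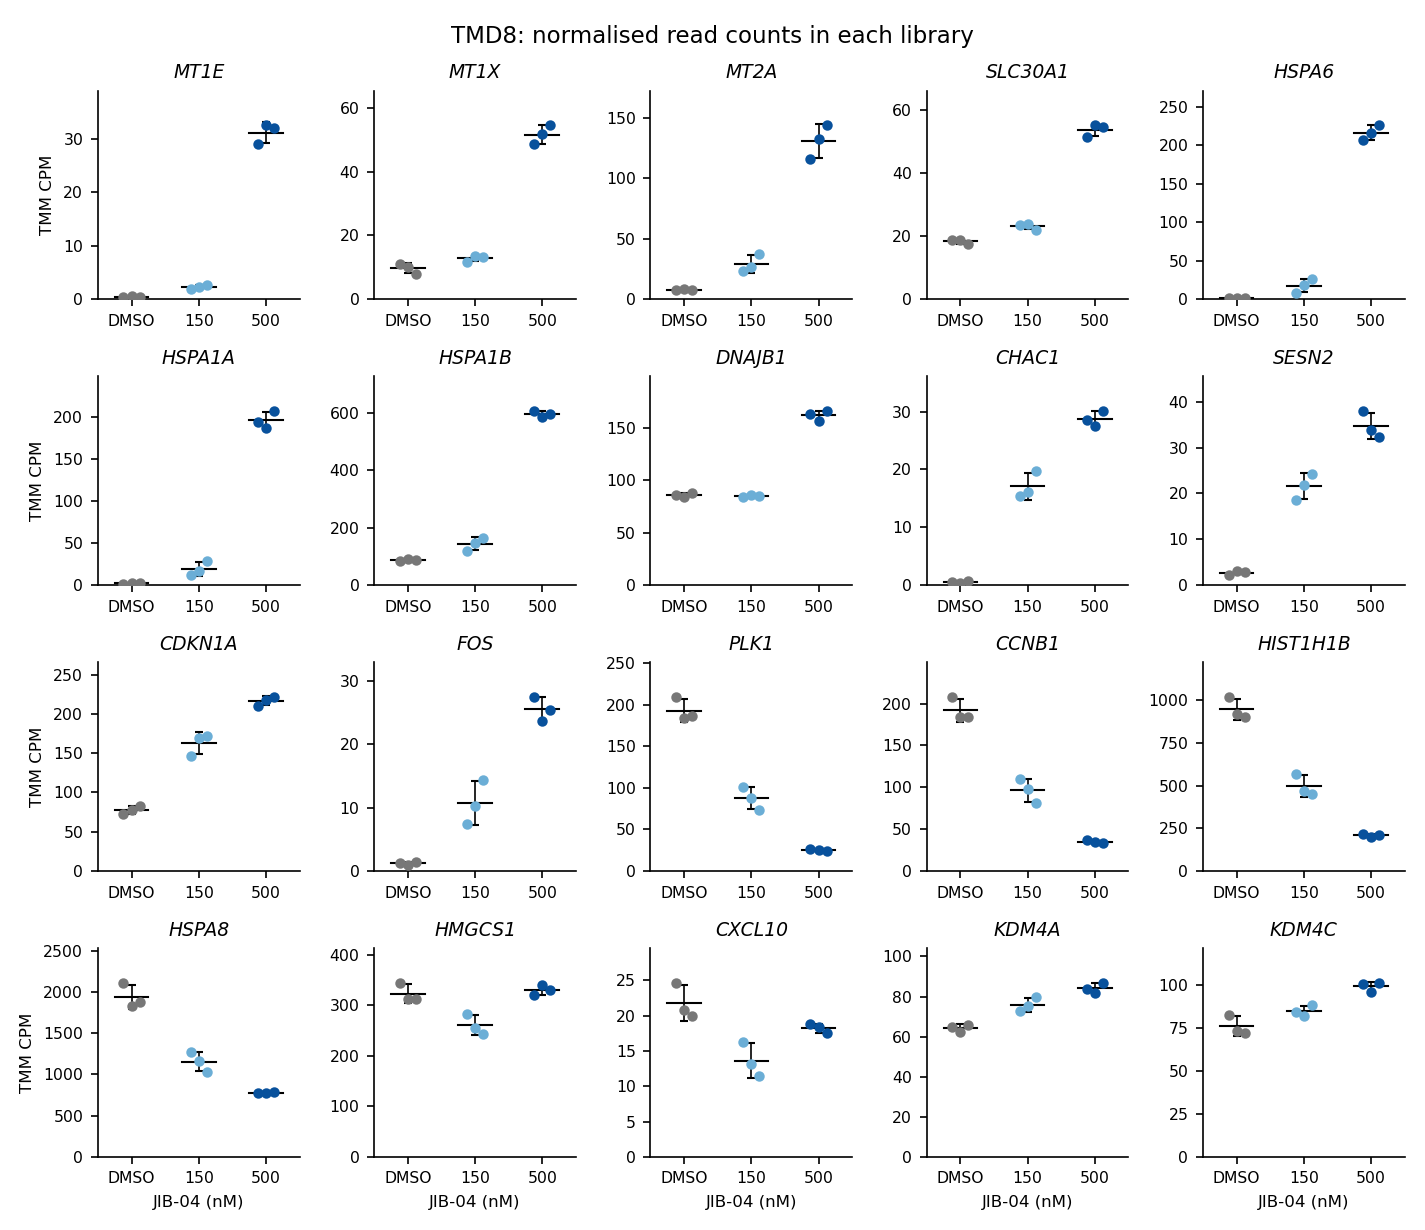
Each panel plots 1 gene's TMM-scaled CPM (y axis, from 0) in the 9 TMD8 libraries under vehicle (grey), 150 nM (light blue) and 500 nM JIB-04 (dark blue); horizontal bars are group means and whiskers 1 SD (n = 3). DNAJB1 and MT1X stay near their vehicle level at 150 nM, CHAC1 and SESN2 make most of their rise by 150 nM, and PLK1 and HIST1H1B fall in both steps.

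Transcripts of the enzymes that JIB-04 is described to inhibit moved little. KDM4C went from 83.8, 81.7 and 88.0 CPM to 100.2, 95.6 and 101 CPM (0.22, SE 0.06, edgeR adjusted p 0.0062). KDM4B went from 81.1, 82.9 and 78.4 CPM to 90.0, 91.8 and 95.3 CPM (0.19, SE 0.05, edgeR adjusted p 0.0058). KDM4A went from 72.8, 75.4 and 79.7 CPM to 83.9, 81.8 and 86.7 CPM (0.14, SE 0.05, edgeR adjusted p 0.044). The KDM4A call was lost with DESeq2 (adjusted p 0.163), without the filter, with thinned counts, on the TPM scales and without any 1 of the 6 libraries but the third at 150 nM. On log2(TPM + 1) the differences of KDM4A and KDM4B were -0.07 and -0.02, so their direction depends on the scaling. Of 26 tested genes on the JmjC list, 14 rose and 1 fell, with a median of 0.15. KDM3A is on the hypoxia-inducible list instead. On log2(TPM + 1) none of the 26 rose and 4 fell (-0.06), and after centring 9 rose and 1 fell (0.10). Leaving out any 1 library gave 9 to 11 rises, the 9 being without the second library of either dose. JARID2, a JmjC protein without demethylase activity, rose most (0.51), followed by JMJD1C and the H3K27 demethylase KDM6A (0.38 each). MINA, a ribosomal oxygenase, was the member that fell, from 90.9, 82.1 and 76.1 CPM to 63.1, 59.3 and 52.6 CPM (-0.50, SE 0.07).

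On the other side of the H3K9 mark, 13 of 29 methyltransferase and heterochromatin genes fell and none rose (median -0.12). SUV39H1, an H3K9 methyltransferase, went from 31.6, 32.7 and 28.5 CPM to 23.5, 24.5 and 24.7 CPM (-0.35, SE 0.07, edgeR adjusted p 0.0015). The lamin genes LMNB1 and LMNB2 fell by 0.27 and 0.34 on the log2 scale and HDAC2, a histone deacetylase, by 0.30. Of 418 tested genes with a ZNF symbol, a class rich in H3K9-marked loci, 25 rose (5.98%) and 36 fell (8.61%), with a median of 0.02. Both shares were below those of all tested genes, 13.7% and 15.0%. The ZNF counts were 4 and 73 on log2(TPM + 1), with a median of -0.13, and 27 and 39 after centring. Leaving out 1 library gave 15 to 24 rises, the lowest without the second 500 nM library, and 19 to 39 falls, the lowest without the third 500 nM library.

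Cholesterol synthesis genes rose in 13 of 23 cases with 1 fall and a median of 0.18, which was -0.04 on log2(TPM + 1), with 1 rise and 1 fall, and 0.12 with 8 rises after centring. LSS, which closes the sterol rings, rose from 347, 384 and 396 CPM to 612, 624 and 640 CPM (0.73, SE 0.06, edgeR adjusted p 7.8e-08). HMGCS1, an early enzyme of the pathway, stood at 344, 312 and 313 CPM under vehicle, 283, 255 and 244 CPM at 150 nM and 320, 340 and 331 CPM at 500 nM. It was thus lowest at the middle dose and rose by 0.34 in the upper step. PMVK fell by 0.25 on the log2 scale, a call lost without the first 150 nM, the second 500 nM or the third 500 nM library. Without the second 500 nM library 8 members rose.

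Of 31 B-cell identity genes, 7 rose (22.6%) and 9 fell (29.0%), against 13.7% and 15.0% of all genes (median -0.05). The counts were none and 12 on log2(TPM + 1) and 4 and 11 after centring. The lymphoid factor IKZF1 fell by 0.46 on the log2 scale. CIITA, the master regulator of class II antigen presentation, rose by 0.40 and the germinal centre factor BCL6 by 0.35. Of 28 NF-kB targets, 3 rose (10.7%) and 8 fell (28.6%), against the same shares of all genes (median -0.0042). None rose and 8 fell on centred log2(TPM + 1), and none rose and 5 fell without the second 500 nM library. BIRC3, an apoptosis inhibitor, fell from 83.9, 75.8 and 67.7 CPM to 46.3, 45.6 and 41.7 CPM (-0.76, SE 0.08), and the cytokine genes IL10 and IL6 fell by 0.60 and 0.93. LTB and NFKBIE rose by 0.46 and 0.18, but these calls were not stable. LTB lost its call with DESeq2 (adjusted p 0.274), on the TPM scales and without any 1 of the 6 libraries but the third at 150 nM. NFKBIE was at -0.04 on log2(TPM + 1), and lost its call after centring, without the filter, with thinned counts and without the second 500 nM library.

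In the BCL2 family list, which does not hold every family member, 4 of 13 genes rose and 3 fell. The counts were 1 and 5 on log2(TPM + 1) and 5 and 4 after centring. HRK, a pro-apoptotic BH3-only protein, rose from 9.29, 8.56 and 13.6 CPM to 23.2, 21.7 and 23.8 CPM (1.10, SE 0.13, edgeR adjusted p 1.1e-05). BCL2, which opposes apoptosis, rose from 327, 345 and 353 CPM to 443, 460.3 and 449 CPM (0.40, SE 0.05). BID and BAK1, both pro-apoptotic, fell by 0.44 and 0.34 on the log2 scale.

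Metabolic and oxidant genes were divided too. Of 26 hypoxia-inducible genes, 12 rose and 5 fell (median 0.23). On log2(TPM + 1) 3 rose and 6 fell (0.0047), and after centring 11 rose and 5 fell (0.16). ALDOC and NDRG1 rose by 0.85 and 0.84, while the glycolytic enzymes LDHA and HK2 fell by 0.55 and 0.49 on the log2 scale. NRF2 antioxidant genes fell in 10 of 22 cases and rose in 3 (median -0.17). The falls numbered 6 without the first 150 nM or the third 500 nM library and 12 without the third 150 nM library. FTL, the ferritin light chain, fell from 1988, 1993 and 1932 CPM to 1460, 1479 and 1527 CPM (-0.41, SE 0.06, edgeR adjusted p 4e-05). SQSTM1, an autophagy receptor, rose by 0.38. Among 14 genes of iron uptake and storage, a list without the ferritin genes, none rose and 3 fell (21.4%, against 15.0% of all genes). These were IREB2, STEAP3 and PCBP1, by 0.29, 0.43 and 0.25. STEAP3 lost its call after centring log2(TPM + 1) and without the first 150 nM or the first 500 nM library.

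Interferon-stimulated genes rose in 9 of 31 cases and fell in 3 (median 0.08). On log2(TPM + 1) 2 rose and 6 fell (-0.06), after centring 8 rose and 3 fell (0.0986), and without the first 150 nM or the second 500 nM library 1 fell. IFIT2 rose by 0.68, ISG20 by 0.55 and IRF7 by 0.52, and BST2 fell by 0.45. Of 13 P-TEFb and BET genes 4 rose and none fell (median 0.05), against 1 and 1 on log2(TPM + 1) (-0.16) and 3 and none after centring (-0.0037), with HEXIM1, the inhibitor of P-TEFb, going from 104, 110 and 125 CPM to 150, 147 and 157 CPM (0.42, SE 0.07, edgeR adjusted p 0.00015).

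Of 21 marker genes of other cell types 12 could be tested, of which 4 rose (COL1A1, ITGAM, HBA1 and CD3G) and none fell; the median was 0.11. The rises numbered 3 on log2(TPM + 1) (median -0.04), 4 after centring (0.12) and 1 with DESeq2. COL1A1 went from 9.80, 11 and 14.3 CPM to 30, 30 and 29.4 CPM. Summed levels ranged from 19.3 to 22.7 CPM at 150 nM and 20.9 to 23.2 CPM at 500 nM for 7 T and NK markers, from 2.76 to 4.56 and 5.24 to 5.83 CPM for 8 myeloid and blood markers, and from 34.1 to 41.8 and 56.6 to 59.3 CPM for 6 epithelial, stromal and endothelial markers. Their part in the other results was not tested.

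Whether the upper step repeated the lower one was tested gene by gene in the 9 TMD8 libraries, as the second step minus the first (150 nM against vehicle). The first vehicle library gave a chi-square per degree of freedom of 10.3 and 10.9 against the other vehicle libraries, which gave 1.90 between them. That library enters the first step and the shared estimate of spread. Both steps use the 150 nM libraries, with opposite sign, so an error in those libraries moves them apart. The steps differed for 2.8% of genes at an edgeR adjusted p under 0.05, 133 with the second step above the first (0.866%) and 297 below (1.93%). Leaving out 1 library changed these counts to between 38 and 226 above and between 148 and 354 below, the lowest being without the third and the second 150 nM library respectively, and the highest without the first 150 nM library and the first vehicle library.

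The integrated stress response had made most of its rise at the lower dose. 19 of its 34 genes had a smaller second step, and none had a larger one. Its median was 0.81 in the first step and 0.31 in the second. CHAC1 stood at 0.44, 0.34 and 0.65 CPM under vehicle, so its rise to 15.4, 16.1 and 19.8 CPM at 150 nM exceeded the later one (second minus first -4.39, SE 0.26, edgeR adjusted p 4.6e-08). FOSB and SLC6A9, a glycine transporter, had differences of -3.50 and -3.20. Leaving out 1 library gave counts of 12 to 20, the 12 being without the second 150 nM library.

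Some metal-responsive, chaperone and sterol genes had the larger second step. For MT1X the second step exceeded the first by 1.58 (SE 0.18, edgeR adjusted p 4e-05), for MT1F by 1.54, for HSPA1B by 1.31 and for the tubulin gene TUBB3 by 1.16. For DNAJB1 the excess was 0.95 and for SLC30A1 0.89. 9 of 23 cholesterol genes had a larger second step, with medians of -0.21 in the first and 0.18 in the second; the count was 3 without the second or the third 150 nM library. The metallothionein and HSP70 genes did not all share this: MT2A had a difference of 0.19 and HSPA6 of -0.23 (edgeR adjusted p 0.74 and 0.87). The mitotic and histone lists fell by similar medians in both steps, -0.66 and -0.58, and -0.79 and -0.89, with no mitotic member and 1 histone above and 1 member of each list below. Without the third 150 nM library 7 histones and 2 mitotic genes were below, and without the first 150 nM library 3 and 2 were above. LOC100093631 had the lowest difference, -6.58, which rests on 30 CPM in the second 150 nM library against 0.80 and 0.94 in the others. Without that library it was 0.49.

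**Figure D4:**
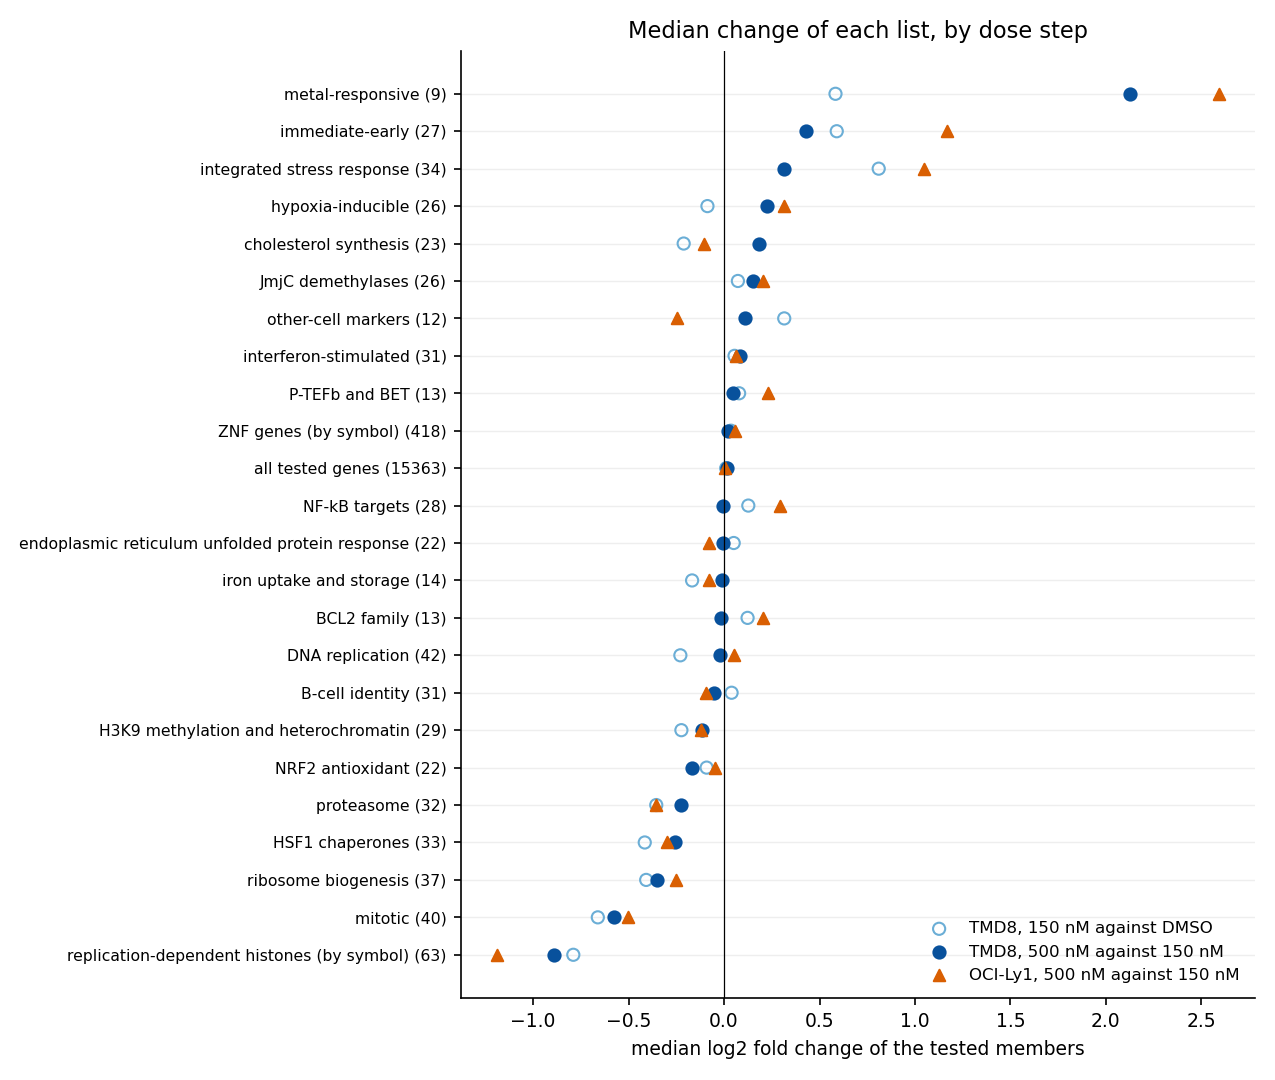
Each row is a list, with its number of tested TMD8 members in brackets; the x axis is the median log2 fold change for the lower step in TMD8 (open circles), the upper step in TMD8 (filled circles) and the upper step in OCI-Ly1 (triangles, without members at 0 in all OCI-Ly1 150 nM libraries). The integrated stress response lies at 0.81, 0.31 and 1.05 and cholesterol synthesis at -0.21, 0.18 and -0.11, while the mitotic list lies at -0.66, -0.58 and -0.50; the TMD8 cholesterol median turns to -0.04 on uncentred log2(TPM + 1).

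The same step in OCI-Ly1 shares no library with the TMD8 step. Of 14480 genes tested in both lines, 1057 rose in both, which is 54.6% of the 1935 TMD8 rises and 28.6% of the 3700 OCI-Ly1 rises, where 25.6% of all these genes rose in OCI-Ly1. 1117 fell in both, 50.3% of the 2221 TMD8 falls and 35.6% of the 3141 OCI-Ly1 falls, where 21.7% of all fell in OCI-Ly1. 147 rose in TMD8 and fell in OCI-Ly1, and 230 did the reverse. Across genes, which are not independent replicates, Pearson's r was 0.35 and Spearman's rho 0.34. In 1 fit of all 18 libraries the steps differed for 23.8% of 16604 genes, with TMD8 above for 8.28% and below for 15.5%.

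For 30 of 34 integrated stress response genes the TMD8 step was below the OCI-Ly1 step and for none above it. SESN2, an inhibitor of mTORC1, rose from 36.6, 36.2 and 32.8 CPM to 219, 211 and 190 CPM in OCI-Ly1, and from 18.6, 21.9 and 24.3 CPM to 38.0, 33.8 and 32.3 CPM in TMD8 (difference -1.89, SE 0.12, edgeR adjusted p 2.7e-12). Immediate-early genes were below for 14 of 27 members and above for none. CDKN1A differed by -1.50. MT2A, at 1.41, 0.91 and 1.01 CPM in OCI-Ly1 at 150 nM and 12.8, 12.2 and 15.4 CPM at 500 nM, stayed below its TMD8 level but rose by more (difference -1.46, SE 0.30, edgeR adjusted p 0.00064).

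The HSF1 chaperone list differed in both directions, with the TMD8 step above for 9 of 33 members and below for 5. HSPA1A stood at 3.03, 2.89 and 3.88 CPM at 150 nM and 4.29, 2.90 and 2.5 CPM at 500 nM in OCI-Ly1, so the TMD8 step was larger by 3.28 (SE 0.41, edgeR adjusted p 1e-06). For HSPA1B the difference was 1.92 and for DNAJB1 1.12. HSPA6 rose in both lines, to 2.09, 1.43 and 1.25 CPM in OCI-Ly1, and its steps did not pass the test of difference (-0.32, SE 0.87, edgeR adjusted p 0.84). 13 of 23 cholesterol genes were above in TMD8 and 1 below. HMGCS1 fell by 0.57 in OCI-Ly1 and the difference was 0.89. MYC moved in opposite directions, up by 0.42 in OCI-Ly1 from 300.1, 293 and 303 CPM to 399, 408 and 390 CPM (difference -0.97, SE 0.08), as did IRF4 (0.89 in OCI-Ly1, difference -1.26).

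The mitotic and histone lists, which fell in TMD8, fell in OCI-Ly1 too. Mitotic genes had a median of -0.50 in OCI-Ly1, where 33 of 40 fell, and the TMD8 step was below for 12 and above for 2. PLK1 was among those below (difference -0.62, SE 0.13), while AURKA gave -0.08 (edgeR adjusted p 0.60). Histone genes fell further in OCI-Ly1, with a median of -1.19, and the TMD8 step was above for 30 of 63 and below for 3. HIST1H1B went from 2234, 2103 and 2090 CPM to 606, 669.7 and 627 CPM there, a difference of 0.49.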

How the data were processed

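The authors deposited estimated counts per gene and TPM for every library, per the file headers; the submitters' processing notes name kallisto 0.46.0, R 4.3.1, DESeq2 1.40.2 and hg19 without saying what each was used for. The tables hold 23690 gene symbols and no row that names no gene; 38.9% of the estimated count values were not whole. The estimated counts were rounded to whole numbers and tested with edgeR 4.0.16 (R 4.3.3): TMM scaling, filterByExpr, a quasi-likelihood fit of the 9 TMD8 libraries by dose, which share 1 estimate of spread, and Benjamini-Hochberg adjustment over all 15363 genes. The fitted coefficient of variation was 5.30%. The difference between lines came from 1 fit of all 18 libraries, and the OCI-Ly1 step from a fit of its own 9 libraries. Changes are log2 fold changes with standard errors. The script was tested on simulated data. The deposited TPM served only in alternatives, on log2(TPM + 1) and log2(TPM + 0.1) with limma 3.58.1.

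The comparison, the gene lists (22 by name and 2 by symbol, in all 599 named genes, 1 of them unmatched) and the tests were chosen with earlier results of these data known. Genes were named by rule. The 10 largest rises and falls needed 5 CPM or more in the higher group, over 3 counts in each library and no overlap. In each list up to 4 called members and up to 2 against the majority were taken under the same conditions. KDM4A, KDM4B and KDM4C were named, as were the 4 largest differences each way between lines and between steps. SLC30A1, CDKN1A, SESN2, HSPA8, HSP90AB1, HSPD1, HSPE1, BAG3, HSP90AA1, DNAJA1, CHORDC1, SERPINH1, DNAJB6, BUB3, AURKA, ATF4, DDIT3, ASNS, PHGDH, MTF1, IRF4, ITGAM, HBA1 and CD3G were added after their values were seen. HSPH1, HSPB1, KLRD1 and KRT8 were added in the same way. Promoters are those of RefSeq (GRCh38.p14). No entry was used for MT1E, MT1F and MT1G. Intervals and errors cover these libraries only. Some genes and 1 list are not reported here.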

Additional observations from a re-analysis of the deposited data

Results flagged for a closer look

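8 genes were singled out because their step from 150 to 500 nM differed between the lines in the fit of all 18 libraries, by the largest amounts in each direction among genes with over 3 counts in all 12 treated libraries. The difference is the TMD8 step minus the OCI-Ly1 step on the log2 scale.

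In 4 genes the OCI-Ly1 step was the larger. FERMT2, an integrin activator, differed by -4.24 (SE 0.24, edgeR adjusted p 4.1e-13): it went from 0.69, 0.87 and 0.27 CPM to 14.9, 12.5 and 12.1 CPM in OCI-Ly1 and from 35.8, 36.3 and 33.1 CPM to 38.8, 40.2 and 38.0 CPM in TMD8. P2RX1, an ATP-gated channel, differed by -4.01, with 10.0 to 12.4 CPM in OCI-Ly1 at 500 nM against 15.8 to 16.6 CPM in TMD8. TUBB2B, a beta-tubulin, differed by -3.79 and BATF3, an AP-1 family factor, by -3.54. All 4 genes were already above 10 CPM in each TMD8 library at 150 nM and at or under 1.16 CPM in each OCI-Ly1 library at that dose.

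In the other 4 genes the TMD8 step was above. HSPA1A differed by 3.28 and is described with the chaperones. PRX, the gene of the myelin protein periaxin, differed by 2.86 (SE 0.21, edgeR adjusted p 1e-10): it fell from 79.4, 69.1 and 68.0 CPM to 20.1, 22.9 and 20.6 CPM in OCI-Ly1 and rose from 1.52, 2.76 and 2.73 CPM to 5.80, 4.56 and 5.01 CPM in TMD8. EPB41L4B differed by 2.13, with at most 1.98 CPM in any treated TMD8 library. FCRL2, a B-cell receptor of the Fc receptor-like family, differed by 2.12: it fell from 29.7, 31.7 and 30.4 CPM to 6.44, 6.70 and 7.25 CPM in OCI-Ly1, while TMD8 held 127 to 144 CPM at 150 nM and 125 to 139 CPM at 500 nM.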

How the results depend on the processing

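None of the 4409 called genes was called in the opposite direction under any of 15 alternatives to the TMD8 step, although some that lost their call also changed sign, as given for the named genes at the end. The rises numbered 1396 with DESeq2, 464 on log2(TPM + 1) and 422 on log2(TPM + 0.1), and the falls 3980 and 4146 on those TPM scales. The genes past an absolute log2 fold change of 1 numbered 397 with no filter on low counts, 119 with DESeq2, 78 on log2(TPM + 1) and 57 after centring it. Leaving out 1 library gave 1585 to 2180 rises, 1688 to 2773 falls and 215 to 388 genes past 1, the last without the third 150 nM library. For the second step minus the first, the genes below numbered 478 with library size scaling and 591 with no filter, and those above numbered 69 with counts thinned to the smallest TMD8 library, an alternative chosen after seeing the data; leaving out 1 library gave 38 to 226 above and 148 to 354 below. Same-numbered libraries did not deviate together (correlations -0.02, -0.04 and 0.06), and differently numbered ones gave -0.06 to 0.07. Whether libraries of the same number share a culture or batch was not tested. With the replicate block the step had 2189 rises and 2393 falls. The line difference then had 1360 above and 2593 below, and the second minus first step 148 above and 307 below. On log2(TPM + 1) and log2(TPM + 0.1) the sign turned for NFE2L1 (-0.0569 and -0.0590), NFKBIE (-0.0409 and -0.0425), BRD2 (-0.11 and -0.11), KDM4A (-0.0663 and -0.0721), KDM4B (-0.0246 and -0.0273), FERMT2 (-0.0018 and -0.0023) and P2RX1 (-0.0468 and -0.0569). Leaving out 1 library gave FCRL2 a range of -0.0938 to 0.0164, positive without the first 150 nM or the third 500 nM library. It gave LOC100093631 -3.74 to 0.41, and -7.81 to 0.49 for the second minus first step, both positive without the second 150 nM library. The causes were not tested. Of 1858 values of the named genes' steps under the alternatives, 1721 kept direction and call and 120 lost the call.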
